A study of Homo sapiens with 4 samples.

Results

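Among the mature miRNAs of the deposited count table, 237 distinct sequences are predicted miRNAs that carry no name of a known miRNA and are described here. The table names them by a prefix that marks a prediction, left off here, and a chromosome and a number (chr7_31469, for example). The table held 273 predicted names. Leaving out 14 of them by name, and 1 further name with the sequence of one of those 14, left 258 names, and identical sequences counted once gave 237 of the 819 distinct sequences in the table. The other distinct sequences were 568 known miRNAs and the predicted ones left out. The rule uses the names alone and no counts.

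Small RNA was sequenced from RNA pull-down material of HGC27 and AGS, both established human gastric cancer cell lines. Both lines stably overexpressed the FN1 3′ UTR from a lentivirus, in all 4 libraries. Lysate was incubated with a biotinylated RNA made by in vitro transcription and held on streptavidin beads, and the labels call this RNA the positive or the negative probe for that UTR. The groups were HGC27 with the negative probe, HGC27 with the positive probe, AGS with the negative probe and AGS with the positive probe. Each group was 1 library. The labels do not say which probe carried the sense strand. The study's protocol puts antisense RNA on the beads and does not tie it to either probe by name. There was no library of unselected RNA. With 1 library per group, a difference between the 2 probes within a line has no replicate behind it and no p-value.

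A miRNA is cut by Drosha and Dicer from a hairpin precursor to a short mature strand, and the strand is loaded into an Argonaute protein, where its seed, bases 2 to 8 from the 5′ end, pairs with target messages. The cut at the 3′ end of a strand is less exact than that at the 5′ end, and many miRNAs exist as end variants that share the seed. Prediction programs propose further miRNAs from reads that stack at a place in the genome able to fold into a hairpin, and fragments of transfer RNAs, messages and other transcripts can meet the same criteria. Mature transfer RNAs end in CCA, which is added after transcription. The sources used here do not say how these miRNAs were predicted.

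The sequences of the members on which the results below turn are given 5′ to 3′ as the table holds them, with the seed in capitals. The first 6 lie in the hairpins of known miRNAs and are shown with the known miRNA of the same arm beneath each, so that the differing end can be seen.
chr7_31469: uUUGGCAAugguagaacucacacug
miR-182-5p: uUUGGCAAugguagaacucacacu
chr9_34423: uUCCCUUUgucauccuaugccug
miR-204-5p: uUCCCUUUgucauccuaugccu
chr7_30835: uGAGAACCacgucugcucuga
miR-589-5p: uGAGAACCacgucugcucugag
chrX_36551: uGCACCAUgguugucugagcaugc
miR-767-5p: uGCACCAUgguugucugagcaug
chr7_30689: uCCGGUUCucagggcuccaccu
miR-671-3p: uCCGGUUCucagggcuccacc
chrX_36459: uUUUGCGAuguguuccuaau
miR-450a-5p: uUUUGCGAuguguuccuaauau

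The next 3 are among the most counted members and end in CCA, or, for the last, had the second highest count of all members and matched no sequence searched.
chr3_23771: aUCCCACUucugacacca
chr19_13721: uCCCUGUUcgggcgcca
chr19_13494: gUGGACGGugugaggcc

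The last 4 are the members that were higher with the positive probe in both lines at 10 counts or more in each positive library, and the member counted only in AGS with the positive probe. The first pair share their seed.
chr5_26447: uGGCUGGCcgcgcucuucgcac
chr10_214: uGGCUGGCugcuccgggcacu
chr17_11232: uGCUGCUUgucccuuuggaucc
chr19_13690: uGAGGAUCgagccaugggcua

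The predicted miRNAs were a small part of the libraries. The table's counts over distinct sequences came to 1444984 and 1296691 in HGC27 with the negative and the positive probe, and to 2955042 and 1527242 in AGS. The 237 members held 9478 of these counts in HGC27 with the negative probe, a share of 0.656% (95% Wilson interval 0.643 to 0.669), and 7291 in HGC27 with the positive probe (0.562%, 0.55 to 0.575). In AGS they held 2206 counts with the negative probe (0.0747%, 0.0716 to 0.0778) and 1666 with the positive probe (0.109%, 0.104 to 0.114). The shares were higher in both HGC27 libraries than in both AGS libraries. On these totals the probes differed in opposite directions in the 2 lines. All intervals in this report cover counting error only, since each group was 1 library. The sources describe no molecular identifiers in the reads, so the intervals take every read as a separate molecule. A single known miRNA, miR-372-3p, took 80.8% of the counts of AGS with the negative probe and 37.5% of AGS with the positive probe, against 0.179% and 0.3% in HGC27, and this lowers every other share in AGS. With its 2388335 and 572497 counts left out of the AGS totals, the members' share is higher with the negative probe, as in HGC27. The opposite direction in AGS thus rests on the totals used.

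Of the 237 members, 109 were listed in HGC27 with the negative probe, 158 in HGC27 with the positive probe, 38 in AGS with the negative probe and 73 in AGS with the positive probe. The lowest count the table lists is 2, so an unlisted member may have had 0 or 1. In both lines more members were listed with the positive probe, while for the 568 known miRNAs the order was the other way, with 440 against 423 in HGC27 and 287 against 271 in AGS. Most listings were of few reads. Only 30, 41, 10 and 19 members, in the same order of libraries, had 10 counts or more.

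**Figure D1:**
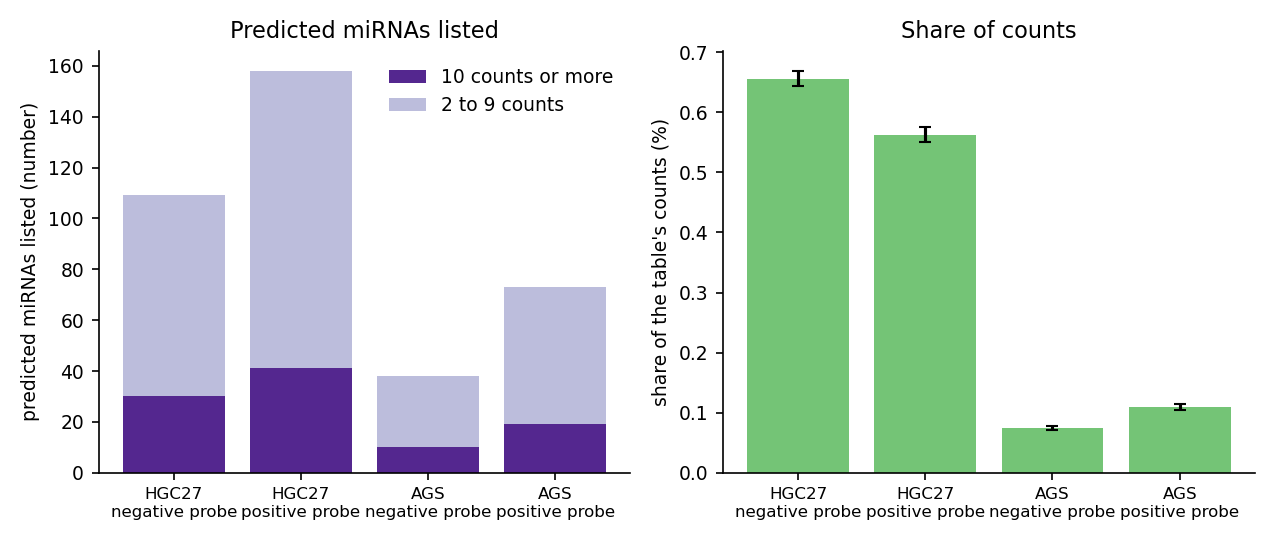
Left, the number of predicted miRNAs listed in each of the 4 libraries, split into those with 10 counts or more and those with 2 to 9 counts. Right, the share of the table's counts, in percent, held by the 237 predicted miRNAs, with 95% Wilson intervals as bars; the shares are 0.656% and 0.562% in HGC27 and 0.0747% and 0.109% in AGS.

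The members differed from the known miRNAs in how often they recurred. A total of 144 members (60.8%) were listed in 1 library only, against 30.1% of the known miRNAs, and 14 members (5.91%) were listed in all 4 libraries, against 35.7% of the known miRNAs. Those 14 held 84.8% of the 20641 counts of the whole set. By line, 146 members (61.6%) were listed only in HGC27, 31 (13.1%) only in AGS and 60 in both, while 39.3% and 9.33% of the known miRNAs were listed only in HGC27 and only in AGS. The largest single pattern was 78 members listed in HGC27 with the positive probe alone, where the highest count was 22. A further 28 were listed in AGS with the positive probe alone, and just 2 in AGS with the negative probe alone. The median member had 6 counts over the 4 libraries and the highest 6117, and 164 members (69.2%) had fewer than 10, against 37.0% of the known miRNAs.

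The members also differed in length from the known miRNAs. Both sets had a median of 22 bases, but 59.5% of the members were 21 to 23 bases long against 91.0% of the known miRNAs, and 39 members (16.5%) were 17 or 18 bases long against 1.23%. The median GC content was 56.5% for the members and 50.0% for the known miRNAs. The first base was U, which Argonaute proteins bind readily, in 42.2% of the members and in 47.4% of the known miRNAs. Among the 73 members with 10 or more counts in all, 53.4% began with U, and 18 (24.7%) were 17 or 18 bases long. At the 3′ end, 10 members (4.22%) ended in CCA, against 3 known miRNAs (0.528%).

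**Figure D2:**
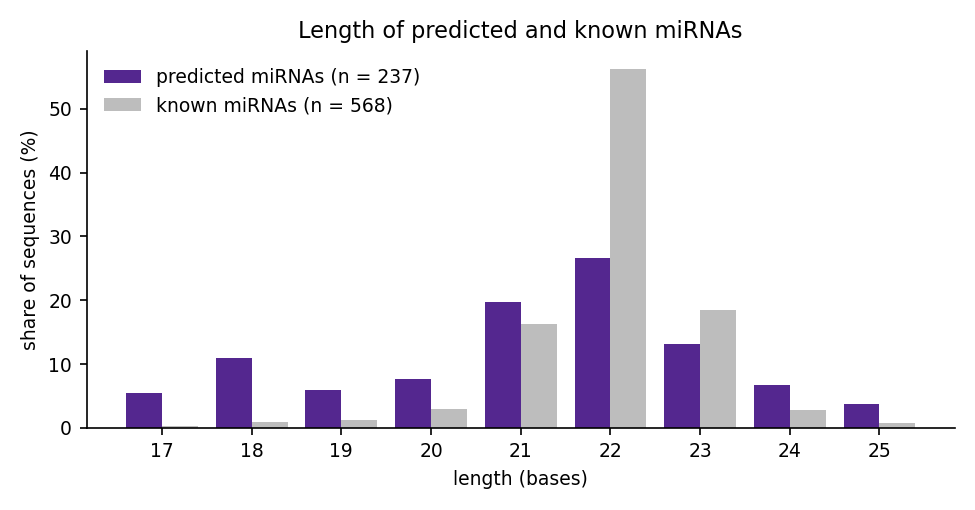
Share of sequences, in percent, at each length in bases for the 237 predicted miRNAs and the 568 known miRNAs. Known miRNAs peak at 22 bases with 56.3%, while the predicted ones have 26.6% there and 11.0% at 18 bases.

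Not every member fits its label of a further miRNA. A search of RefSeq hairpins (GRCh38.p14) placed 26 of the 237 members inside the hairpin of a known miRNA, and 3 more overlapped a known mature sequence of the table by 16 bases or more. These 29 members held 38.1% of the set's counts. Exact searches of GENCODE release 29 transcripts placed 4 members in other small RNAs and 75 in exons of other transcripts, of which 34 were in coding exons, 25 in untranslated regions and 16 in noncoding transcripts. The remaining 129 matched none of these, and 7 of them ended in CCA. The 7 held 22.1% of the counts and the other 122 held 35.9%. The 75 in other transcripts made up 31.6% of the members but held 3.72% of the counts. No genome sequence was at hand, so places outside transcripts and hairpins were not searched here. The chromosome in a member's name is not used here as its position, because for 21 of the 26 hairpin members it was that of a matching hairpin and for the others it was not.

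Among the 26 of these 29 that overlapped a RefSeq mature sequence by 16 bases or more, 20 began at the known 5′ end. Of those 20, 9 ran 1 base past the known 3′ end and 11 were shorter. A further 5 began at another base, and 1, which shares 18 bases with miR-574-5p, differed from it near the 5′ end. None had both known ends, and no predicted sequence in the table equalled a known one. Over the whole set 35 members shared bases 2 to 8 with a known miRNA of the table, of which 19 were in a known hairpin or overlapped a known mature sequence. Among the 16 others were chr2_20411, with the seed of miR-548 family members, and chr3_23625, with the seed that miR-372-3p shares with the miR-302 family and 3 counts in 1 library. Within the set, 8 seeds were shared by more than 1 member, and no pair of members had 16 bases in common.

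The member with the most counts was chr7_31469, which is miR-182-5p with 1 more base of its hairpin at the 3′ end. miR-182-5p comes from a cluster that is active in sensory organs and in many carcinomas. The sequence lies in MIR182 at chr7:129770446-129770470, minus strand (GRCh38.p14). It had 3733 counts in HGC27 with the negative probe, 1751 with the positive probe, and 533 and 100 in AGS. The deposited normalized values, tags per 1000000 rounded to whole numbers, were 1284, 633, 74 and 23. Both HGC27 libraries lay far above both AGS libraries, and in each line the negative probe was the higher. In HGC27 the positive probe gave 0.493 of the level of the negative probe (95% exact interval 0.466 to 0.522) and in AGS 0.315 (0.252 to 0.391). The known miR-182-5p had 3431 and 1923 counts in HGC27 and 1311 and 466 in AGS. Per 100 counts of it, the longer form had 109 in HGC27 with the negative probe (104 to 114), 91.1 with the positive probe (85.3 to 97.2), and in AGS 40.7 (36.7 to 45.0) and 21.5 (17.1 to 26.7). The longer form was thus about as frequent as the known form in HGC27 and less frequent in AGS, and in each line its part was lower with the positive probe, beyond counting error and with no replicate.

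Of the other 5 end variants shown above, each was counted above its known form in every library that listed both. The excess was within counting error for chr7_30689 in both AGS libraries and for chrX_36459 in HGC27 with the negative probe. chr8_31927, with 10 counts in HGC27 with the negative probe and the seed of the miR-320 family, stood the other way, at 0.046 per 100 counts of miR-320a-3p. chr19_12358, in the MIR3074 hairpin, had 8 and 41 counts in HGC27 and 0 and 3 in AGS, and its known form was not listed. chr9_34423, which is miR-204-5p with 1 more 3′ base in MIR204 at chr9:70810030-70810052, minus strand, had 216 and 291 counts in HGC27 and 0 and 3 in AGS. The known miR-204-5p had 63 and 136 counts in HGC27 and none in AGS, and so stood on the same side. chrX_36551, miR-767-5p with 1 more 3′ base in MIR767 at chrX:152393480-152393503, minus strand, had 123 and 224 counts in HGC27 and was not listed in AGS. The known miR-767-5p had 60 and 105 counts in HGC27 and was not listed in AGS either. Both extended forms thus stood at 205 or more per 100 counts of the known form in HGC27.

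chr7_30835 is miR-589-5p without its last base, in MIR589 at chr7:5495874-5495894, minus strand. It had 104 and 99 counts in HGC27 and 43 and 133 in AGS, where the known form had 21, 22, 5 and 16. The shorter form stood between 450.0 and 860.0 per 100 counts of the known form in the 4 libraries, with intervals that overlapped. In AGS the shorter form was 5.2-fold higher with the positive probe (3.66 to 7.51) and in HGC27 the fold was 1.00 (0.753 to 1.33). The AGS fold is smaller on totals without miR-372-3p, though still above equal levels. chr7_30689, miR-671-3p with 1 more 3′ base in MIR671 at chr7:151238488-151238509, plus strand, had 131 and 108 counts in HGC27 and 14 and 8 in AGS, and per 100 counts of the known form it stood at 114 or more in every library. In AGS the intervals of that measure were wide, 50.1 to 276 with the negative probe and 36.2 to 370 with the positive probe. chrX_36459, miR-450a-5p without its last 2 bases in MIR450A1 at chrX:134540395-134540414, minus strand, had 12 and 25 counts in HGC27 and none in AGS, and the known form had 5 and 12 there and none in AGS.

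**Figure D3:**
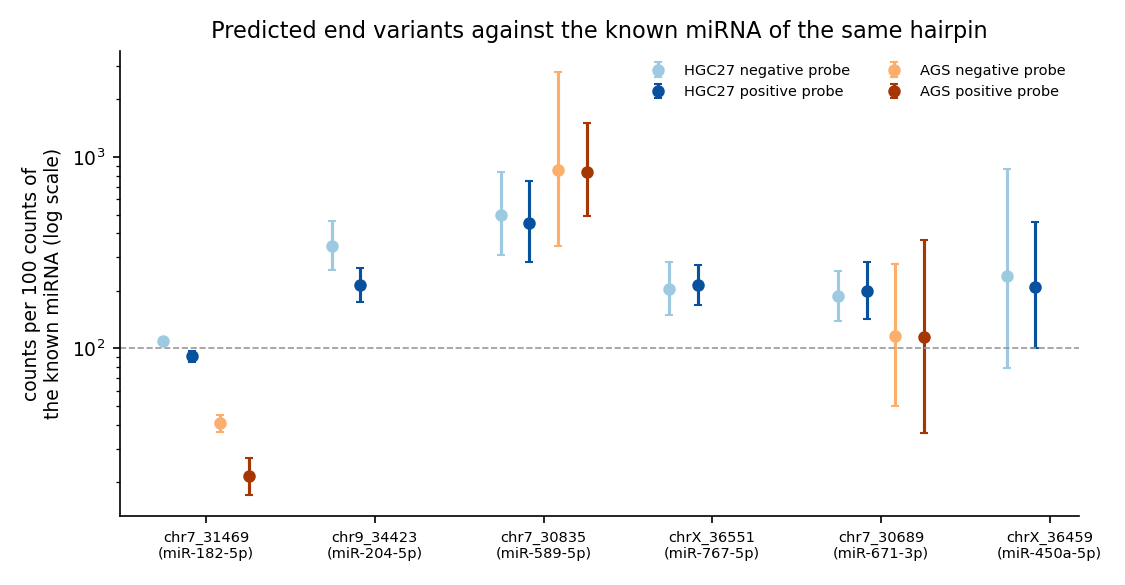
Counts of 6 predicted end variants per 100 counts of the known miRNA named in parentheses, in each library, on a log axis with 95% exact intervals as bars; libraries in which either form is not listed have no point. The dashed line marks 100. chr9_34423, chrX_36551 and chrX_36459 have no point in AGS. Among the variants with points in both lines, chr7_31469 is the one whose HGC27 and AGS intervals lie apart, at 109 and 91.1 against 40.7 and 21.5.

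Among the end variants with 10 counts or more in a library, chr1_17367 had more counts in AGS. It matches miR-215-5p with 1 more 3′ base, in MIR215 at chr1:220117915-220117936, minus strand, and had 0 and 5 counts in HGC27 and 12 and 35 in AGS. In AGS it was 4.9-fold higher with the positive probe (2.48 to 10.4). On totals without miR-372-3p this fold is smaller, and counting error does not separate it from equal levels. The table lists no miR-215-5p, and lists miR-192-5p, its close relative, at 349, 326, 832 and 959 counts.

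The 3 members ending in CCA that the rule named were unalike. chr3_23771 had 2699 and 1102 counts in HGC27 with the negative and the positive probe and 211 and 253 in AGS. With the positive probe it stood at 0.429 of the negative level in HGC27 (0.4 to 0.461) and at 2.01 in AGS (1.67 to 2.43), opposite directions in the 2 lines. In AGS the direction rests on the scaling, since it turned when miR-372-3p was left out of the library totals. chr19_13721 had 199 counts in HGC27 with the negative probe and 10 with the positive probe, 0.0529 of the level (0.025 to 0.0993), the lowest probe ratio in HGC27 among the members with 10 counts or more. In AGS it had 14 and 4 counts, a fold of 0.48 (0.115 to 1.53) that counting error does not separate from equal levels. chr2_21406 had 2 and 0 counts in HGC27 and 11 and 27 in AGS, where it was 4.12-fold higher with the positive probe (1.98 to 9.21). Every AGS probe fold in this report is smaller on totals without miR-372-3p, which moved the median AGS log2 ratio of all entries from 0.37 to -0.95. On those totals counting error does not separate the fold of chr2_21406 from equal levels.

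Of the members without a match, chr19_13494, a sequence of 17 bases, had 1237 and 2176 counts in HGC27 and 1202 and 421 in AGS. It was the one among the 3 most counted members that was higher with the positive probe in HGC27, 1.85-fold (1.72 to 1.99), and it was lower in AGS, at 0.588 (0.525 to 0.658). chr9_34593, also of 17 bases, had 182 and 273 counts in HGC27 and 67 and 57 in AGS. Its probe folds were 1.58 (1.3 to 1.91) in HGC27 and 1.43 (0.986 to 2.07) in AGS. The AGS direction rests on the scaling, since it turns with TMM or when miR-372-3p is left out of the library totals. chr5_27426 had 75 and 38 counts in HGC27 and 5 and 6 in AGS, and chr15_7208 had 37 and 28 in HGC27 and 7 and 16 in AGS. These 4 were listed in all 4 libraries.

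Members that matched other transcripts had lower counts. chr3_23748 lies in an exon of 2 transcripts of the EIF4A2 gene that carry no annotated coding sequence, at chr3:186787299-186787322, plus strand (GRCh38). It had 87 and 48 counts in HGC27 and 10 and 6 in AGS. With the positive probe it stood at 0.58 of the negative level in HGC27 (0.399 to 0.835). chr12_3960 lies in a coding exon of TNFRSF1A, a receptor for tumour necrosis factor, at chr12:6333150-6333167, minus strand, and was listed only in AGS with the positive probe, at 13 counts.

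**Figure D4:**
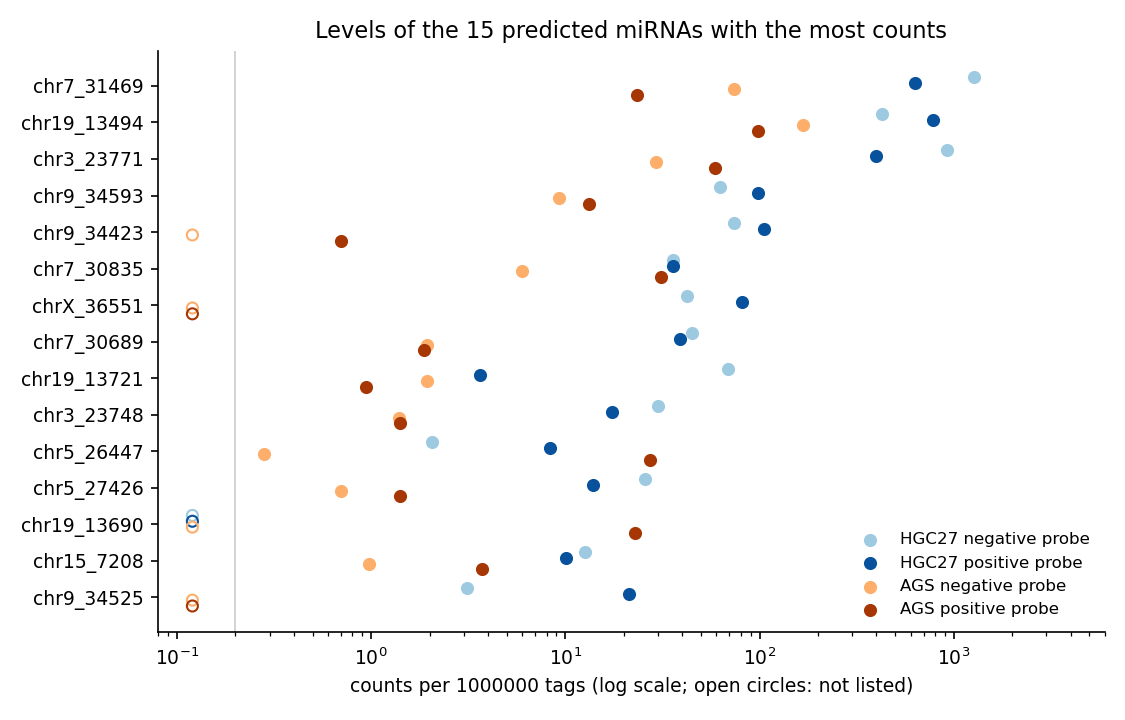
Counts per 1000000 tags, on a log axis, of the 15 predicted miRNAs with the most counts in each of the 4 libraries; open circles at the left edge are libraries in which the member was not listed. Most members lie further right in HGC27, while chr5_26447 and chr19_13690 are highest in AGS with the positive probe.

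Which predicted miRNAs differed between the positive and the negative probe was compared within each line. A member was called higher or lower where the ratio of the deposited normalized values, each plus 1, was at least 2 or at most 0.5. In HGC27, 112 of the 206 members listed with either probe were higher with the positive probe (54.4%) and 61 were lower (29.6%). Over all entries of the table the same calls took 37.2% and 33.8%. In AGS, 55 of 91 members were higher (60.4%) and 6 were lower (6.59%), against 39.3% and 22.5% of all entries. These counts rest largely on few reads, since a normalized value of 1 against 0 already gives a ratio of 2. Of the calls higher with the positive probe, 91 in HGC27 and 39 in AGS had fewer than 10 counts in both libraries of the pair.

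With 10 counts or more in a library of the pair the picture was close to this. In HGC27, 21 of 52 members were higher with the positive probe and 13 were lower, and the same calls took 28.4% and 32.6% of all entries. In AGS, 16 of 22 were higher (72.7%) and 1, the miR-182-5p variant, was lower, against 40.4% and 31.6% of all entries. The median log2 ratio of these members was 0.54 in HGC27 and 1.58 in AGS, and that of all entries was -0.02 and 0.37. The counting interval excluded equal levels for all 21 and 16 members called higher, and for 10 of the 13 called lower in HGC27. This describes the calls and is no support for them, since the members were picked by the same counts. Members in other transcripts had the highest group median in HGC27, 1.32 over 13 members, and members with no match and no CCA end had the highest in AGS, 2.00 over 12. With TMM scaling in place of the deposited one the calls in HGC27 were 103 higher and 39 lower of 206 members, against 30% and 22.3% of all entries. In AGS they were 61 higher and 21 lower of 91, against 39.5% and 38.8% of all entries.

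A total of 19 of the 60 members listed in both lines were higher with the positive probe in both (31.7%), against 22% of all entries listed in both lines. Of those 60 members, 5 were lower in both (8.33%), against 16.5% of all entries, and 6 were called in opposite directions. Only 3 of the 19 had 10 counts or more in each positive library. chr5_26447 had 6 and 23 counts in HGC27 with the negative and the positive probe and 2 and 117 in AGS. chr10_214 had 0 and 20 counts in HGC27 and 2 and 29 in AGS. chr17_11232 had 2 and 18 counts in HGC27 and 0 and 17 in AGS. In all 3 both positive libraries lay above both negative ones. The other 16 reached at most 41 counts in HGC27, for chr19_12358, a form of miR-3074-5p that begins 1 base later, and at most 42 in AGS, for chr1_16333. Of the 5 lower in both lines, chr7_31469 alone had 10 counts or more in each negative library.

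A fit of all 4 libraries gave the only p-values the design allows. edgeR's quasi-likelihood test with line and probe as terms was run on the 268 entries with enough counts, which took the lines as replicates of the probe comparison and left 1 residual degree of freedom per entry. In this fit each entry's spread was drawn fully to a trend shared by the entries tested. The p-values rest on that trend and not on each entry's own spread. Over all entries 14 (5.22%) were higher with the positive probe and 9 (3.36%) lower at an adjusted p below 0.05. Of the 22 members tested, 3 were higher and 0 were lower, and 4 members had an unadjusted p below 0.05. chr10_214 rose by 4.56 on the log2 scale (SE 1.19, adjusted p 0.00899). chr17_11232 rose by 4.19 (SE 1.11, adjusted p 0.00899). chr5_26447 rose by 3.77 (SE 1.26, adjusted p 0.0378). All 3 reached the count filter through the positive libraries alone, in which they were high, so their calls are given as a description. The first and the second have a negative library that is not listed, so their fitted values depend on the prior count. chr19_13721, at -3.15 (SE 1.14), did not pass, with an adjusted p of 0.0543. The calls of chr10_214, chr17_11232 and chr5_26447 were all lost with library totals in place of TMM, with adjusted p of 0.134, 0.134 and 0.227. Over the other alternatives their adjusted p ran from 0.024 to 0.0983, from 0.0267 to 0.254 and from 0.0316 to 0.0523.

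**Figure D5:**
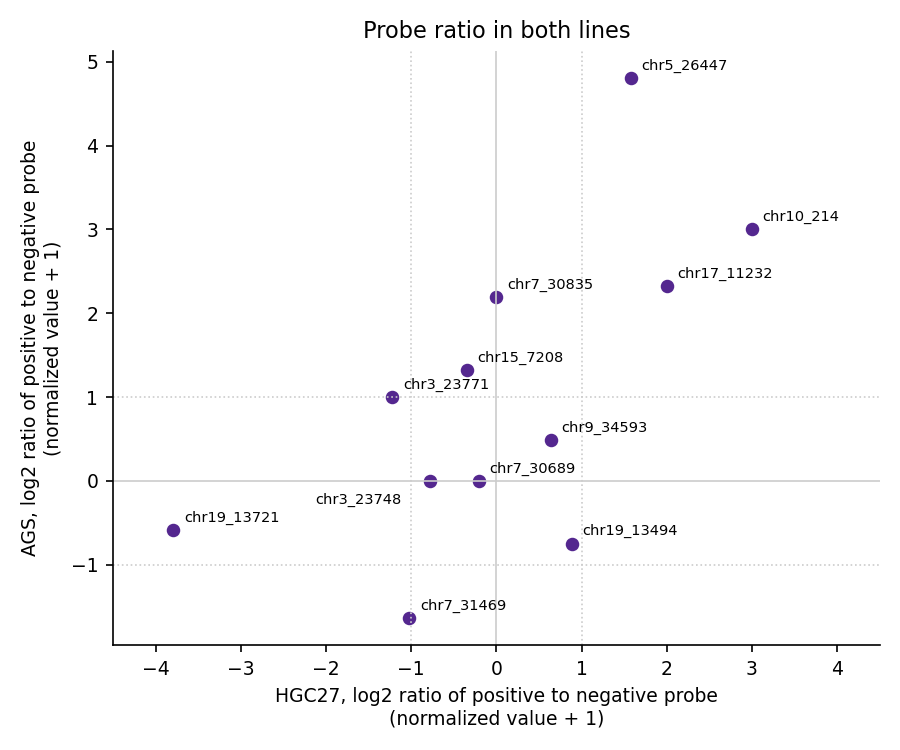
The log2 ratio of the positive to the negative probe, from normalized values plus 1, in HGC27 (horizontal) and AGS (vertical) for the 12 predicted miRNAs with 10 counts or more in each line; dotted lines mark ratios of 2 and 0.5. chr5_26447, chr10_214 and chr17_11232 lie past 2 in both lines, and chr7_31469 lies past 0.5 in both.

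Other members were counted with the positive probe and not, or hardly, with the negative one. Where a library lists none the fold is set against a floor of 3 counts per library, and the exact 95% lower limit of the fold, which is smaller, is given after it. chr19_13690 had 98 counts in AGS with the positive probe and was not listed in the other 3 libraries, at least 54.9-fold higher than AGS with the negative probe on the floor (exact limit 43.8). chr1_16333 had 42 counts in AGS with the positive probe, 6 in HGC27 with the positive probe and none with the negative probe in either line, at least 23.5-fold (18.3) and 2.1-fold higher (1.24). In HGC27, chr2_22347 had 22 counts with the positive probe and was not listed elsewhere, at least 7.71-fold higher (5.76), and chr12_3885 had 19, at least 6.66-fold higher (4.91), with 9 in AGS with the positive probe. chr9_34525 had 9 and 59 counts in HGC27, a 6.9-fold difference (3.4 to 15.8), and was not listed in AGS.

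In the other direction chr2_20411 had 48 and 8 counts in HGC27, 0.175 of the level with the positive probe (0.0716 to 0.374), and chr5_27187 had 16 and 0, at least 5.07-fold lower on the floor, with an exact upper limit of the fold of 0.273. Across the 12 members with 10 counts or more in both lines the probe log2 ratios in HGC27 and AGS gave a Pearson r of 0.631 and a Spearman rho of 0.623. Of the 12, 6 had the same sign in both lines and 3 had opposite signs, and the rest had a log2 ratio of 0 in 1 line. The 172 known miRNAs of that kind had an r of 0.76 and a rho of 0.769. The ratios of the lines share no library.

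The lines were compared next, with the same probe. Most entries of the table were higher in HGC27 on the deposited scale, with a median log2 ratio of HGC27 to AGS of 2.81 with the negative probe and 2.58 with the positive probe over entries with 10 counts or more. TMM scaling put these medians at 0.72 and 1.08, so a level that is higher in HGC27 by less than these medians is not higher relative to the other entries. With the negative probe, 106 of 116 members were higher in HGC27 (91.4%) and 2 lower (1.72%), against 85.7% and 6.14% of all entries. With the positive probe, 144 of 191 were higher (75.4%) and 33 lower (17.3%), against 75.3% and 12.7% of all entries. With TMM scaling 60 of the 116 members were higher and 12 lower with the negative probe, against 39.6% and 18.9% of all entries. With the positive probe 115 of the 191 were higher and 47 lower, against 50.3% and 24.4% of all entries. With 10 counts or more in a library of the pair, 30 of 32 members were higher and 1 lower with the negative probe, against 85.5% and 8.95% of all entries, and 36 of 51 higher and 10 lower with the positive probe, against 74.8% and 12.8%. The medians of these members were 2.63 and 2.32, below those of all entries. With the negative probe that order rests on the scaling. TMM put the medians at 1.37 for these members and 0.72 for all entries. DESeq2 size factors and table totals, with or without miR-372-3p, turned the order as well. With the positive probe the members stayed below under each of these scalings.

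The end variants of miR-204-5p and miR-767-5p stood furthest apart between the lines. chr9_34423 was at least 178-fold higher in HGC27 with the negative probe, on the floor (exact limit 143), where AGS had none, and 150.0-fold higher with the positive probe (50.8 to 732). chrX_36551 was not listed in AGS and, with the positive probe, was at least 115-fold higher in HGC27 (exact limit 93.1). On the deposited scale, chr7_31469 was 17.3-fold higher in HGC27 with the negative probe (15.8 to 19.0) and 27.1-fold with the positive probe (22.1 to 33.5). On that scale chr3_23771 was 31.6-fold (27.5 to 36.5) and 6.74-fold higher (5.87 to 7.75). With the positive probe the log2 ratio of chr3_23771 was 2.74, close to the median of 2.58 over entries with 10 counts or more. Neither chr7_31469 nor chr3_23771 was called between the lines in the edgeR fit with TMM (adjusted p 0.364 and 0.537). On the other side, chr19_13690 was at least 21.1-fold lower in HGC27 with the positive probe on the floor, with an exact upper limit of the fold of 0.0593, and chr2_21406 at least 5.82-fold lower, with a limit of 0.226.

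In the edgeR fit, 62 of the 268 entries (23.1%) were higher in HGC27 and 25 (9.33%) lower at an adjusted p below 0.05, with a median log2 fold change of 0.57 over all entries tested. Of the 22 members, 6 were higher and 1 was lower. The 6 were chrX_36551, chr9_34423, chr1_15109, chrX_36459, chr2_20571 and, named here after its values were seen, chr1_15558. In edgeR chrX_36551 rose by 9.84 on the log2 scale (SE 2.15, adjusted p 0.000159) and chr9_34423 by 5.66 (SE 1.40, adjusted p 0.000526). chr1_15109 had 18 and 21 counts in HGC27 and chr2_20571 had 15 and 16, and neither was listed in AGS. All 6 reached the count filter through the HGC27 libraries alone, in which they were high, so their calls are a description too. All but chr9_34423 were unlisted in both AGS libraries, so the fitted values of the other 5 are no measure of size. With no filter or with DESeq2, chrX_36551 and chr9_34423 kept their calls, and chr1_15109, chrX_36459 and chr2_20571 lost theirs, with adjusted p from 0.404 to 0.593. With no filter chr1_15558 lost its call as well (adjusted p 0.697), and DESeq2 gave it no adjusted p. The member called lower was chr10_214 at -2.77 (SE 1.09, adjusted p 0.0383), and this call was lost under each alternative run, with adjusted p from 0.0753 to 0.622.

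Markers of other tissues were checked in the known miRNAs. Of 6 epithelial miRNAs, 5, 5, 6 and 5 were listed, with summed levels of 780 and 372 per 1000000 tags in HGC27 with the negative and the positive probe and 10300 and 820 in AGS, so AGS with the negative probe stood apart. Of 6 blood cell miRNAs, 1 was listed, at 2 counts in 1 library. The muscle list reached 117 on this scale in HGC27 with the negative probe and 7.8 to 39.8 in the others, with miR-133a-3p unlisted in all 4 libraries, and the liver miR-122-5p lay between 0.836 and 13.1. Their part in the results was not tested.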

How the data were processed

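The 4 libraries were sequenced for 50 cycles after pull-down. The submitters' processing notes name cutadapt 1.9.3, Novoalign 3.02.12 and hg38. The authors counted tags per mature miRNA, and these raw counts were deposited. The deposited normalized values are scores in tags per 1000000 aligned miRNA tags, rounded to whole numbers. How miRNAs were predicted is not given in the sources used here. Members and lists were chosen with earlier results of these data known.

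Identical sequences were counted once, under the first name. The totals the scores were scaled to, recovered from entries with a score of 100 or more, were 2906722, 2763288, 7179197 and 4272817 tags (HGC27 negative, HGC27 positive, AGS negative, AGS positive), above the table totals of 1444984, 1296691, 2955042 and 1527242, and 3 counts are 1.03, 1.09, 0.418 and 0.702 per 1000000. Folds with 95% exact conditional binomial intervals used counts over these totals, and calls used scores plus a pseudocount of 1. edgeR 4.0.16 (R 4.3.3) fitted line and probe with TMM, filterByExpr and Benjamini-Hochberg adjustment over all entries tested, and was tested on simulated data. DESeq2 1.42.0, other scalings, pseudocounts, thresholds and filters were alternatives. Python 3.11.15 was used for all else. Sequences were matched exactly to RefSeq hairpins (GRCh38.p14) and GENCODE release 29 transcripts. Named members were the 15 with the most counts, the 3 with the highest and the lowest probe or line ratio in each pair among those with 10 counts or more, up to 5 higher in both lines with 10 counts or more in each positive library, and up to 5 with the smallest p in each edgeR term at an adjusted p below 0.05.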

Additional observations from a re-analysis of the deposited data

Results flagged for a closer look

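In all, 3 named members had probe differences of opposite direction in HGC27 and AGS, each with 10 counts or more in a library of either line. Each line has 1 library per probe, so the difference between the lines was not tested. For chr19_13494 the log2 ratios of the positive to the negative probe were 0.88 (HGC27) and -0.75 (AGS), 1.63 apart, and both folds were beyond counting error. For chr3_23771, which ends in CCA, they were -1.22 (HGC27) and 1.00 (AGS), HGC27 minus AGS being -2.22, again beyond counting error in both lines. The AGS direction of chr3_23771 rests on the scaling, since it turned when miR-372-3p was left out of the library totals. For chr15_7208 they were -0.35 (HGC27) and 1.32 (AGS), HGC27 minus AGS being -1.67, and the HGC27 value was within counting error.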

How the results depend on the processing

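With 1 library per group, the probes were paired by line only through the line term of the edgeR fit, which sets them against each other within lines. Leaving a library out ends its comparison. Members and reads are few: 164 of 237 members had fewer than 10 counts. Counts of members higher and lower are given in that order, for HGC27 by probe, AGS by probe, HGC27 over AGS with the negative probe, the same with the positive probe, and both lines by probe. They were 112 and 61, 55 and 6, 106 and 2, 144 and 33, and 19 and 5. A minimum of 10 counts gave 21 and 13, 16 and 1, 30 and 1, 36 and 10, and 3 and 1. A pseudocount of 10 gave 2 and 4, 4 and 1, 13 and 0, 15 and 2, and 0 and 1. A ratio of 4 gave 28 and 6, 9 and 0, 37 and 0, 45 and 5, and 2 and 0. With TMM, 39 and 21 were lower by probe in HGC27 and AGS, and 60 were higher and 12 lower in HGC27 with the negative probe. DESeq2 size factors gave 38 and 21, and 60 and 12. Table totals gave 4 lower in HGC27 with the negative probe. The names kept apart, and a pseudocount of 0.1, moved none of these counts by over 1.5 times. In alternatives chosen after seeing the data, table totals without miR-372-3p gave 23 lower by probe in AGS, 12 lower in HGC27 with the negative probe and 11 lower in both lines, and leaving out the 43 members with a match to known miRNAs or small RNAs or a CCA end gave 0 lower in HGC27 with the negative probe. At least 10 counts in the library itself left 30, 41, 10 and 19 members listed, and names kept apart put the share in AGS with the positive probe at 0.118%.

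In edgeR, library totals gave 0 members higher by probe, with 3 at an unadjusted p below 0.05, and by line 14 higher and 0 lower; no filter gave 2 higher and 3 lower by line; DESeq2 gave 2 and 2; names kept apart gave 0 lower. Of 85 log2 ratios of named members, TMM turned 6 that had been called higher or lower, DESeq2 size factors 6 and table totals without miR-372-3p 3. Ratios too small for a call that also changed sign are not in these numbers. With the negative probe HGC27 over AGS turned to -1.68, -1.75 and -1.31 for chr19_13494 and to -0.44, -0.51 and -0.073 for chr7_30835 under these settings in order, and under the first pair of them to -0.28 and -0.35 for chr9_34593. With the positive probe it turned to -0.26 and -0.49 for chr19_13721, -0.78 and -1.05 for chr15_7208, and -0.50 and -0.76 for chr12_3885. Without miR-372-3p the AGS probe ratio of chr3_23771 was -0.49. The cause of these changes was not tested.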
